A study of Mus musculus with 28 samples.

Results

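Medulloblastomas of mice that had lost both p53 and Rictor were set against medulloblastomas of mice that had lost p53 alone, across all genes on the array. The members were chosen by labelled tissue and genotype: the 5 tumours labelled hGFAP-Cre::p53-/-; Rictor-/- (C1, C2, C4, C5 and C6, called Rictor-null) and the 3 labelled hGFAP-Cre::p53-/- (A3, A5 and A6, called p53-null only), which make 8 of the 28 arrays of the series. The 2 medulloblastomas labelled hGFAP-Cre::p53-/-; Rictor+/- (B4 and B6, called Rictor-heterozygous) are given beside them. All 10 tumours therefore lacked p53 and carried hGFAP-Cre, a Cre recombinase under the human GFAP promoter, which is active in neural progenitors and glia, so that blood vessels, immune cells and other cells outside that lineage keep their Rictor alleles. The protocol states a tumour content of at least 70%. Strain and age are not given in the labels used here. Nor do the labels state whether each tumour is from a mouse of its own, and the p-values therefore measure the spread among these samples only, which may be technical. Each array gave 1 intensity for each of 45101 probe sets, groups of short probes that each read part of a transcript, and 13931 genes were tested.

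Rictor is the defining subunit of mTOR complex 2 (mTORC2), a kinase that phosphorylates AKT, SGK and several protein kinases C at sites these enzymes need for full activity. AKT in turn holds the FOXO transcription factors out of the nucleus, where they would switch on genes of cell cycle arrest, apoptosis and stress resistance. Medulloblastoma of the sonic hedgehog type arises from granule neuron precursors of the cerebellum, which divide while hedgehog signal acts through PTCH1, SMO and the GLI factors and turn into granule neurons when it ends. The comparison asks how tumour RNA differs between medulloblastomas labelled as lacking both Rictor and p53 and those labelled as lacking p53 alone. Array data read transcript levels only: kinase activity and protein were not measured.

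The arrays were scaled alike, with median intensities of 20.2 to 27.8 in the 10 tumours. Within the Rictor-null group the Pearson correlation of 2 arrays ran from 0.874 to 0.949, within the p53-null-only group from 0.906 to 0.930 and between the groups from 0.861 to 0.942, so the genotypes did not separate by it. Tumour C6 stood apart: its correlation with the other Rictor-null tumours was 0.874 to 0.903, and it carried markers of mature cerebellar neurons. Actin probe sets at the 3' end read above those at the 5' end by a ratio that goes up as RNA is degraded; it was 2.02 to 2.93 in the Rictor-null tumours, against 1.49, 1.53 and 2.43 in A3, A5 and A6, and its part in the results was not tested. The Y-linked gene Eif2s3y read 391 in C6 and 453 in A6 and at most 4.2 in the other 8 tumours. The granule lineage factor Zic1 was bright in all 8 tumours of the comparison, at 3305 to 5219 in the Rictor-null and 3559 to 4717 in the p53-null-only group. Other markers of granule precursor tumours were not high in each of them. In C6, Atoh1 read 37.5, Gli1 23.4 and Barhl1 51.6, each the lowest of the 8, while Pax6 and Ptch1 read 1071 and 1131. Markers of oligodendrocytes differed in level. Mbp, a myelin protein, read 302 to 2238 in the Rictor-null and 133 to 678 in the p53-null-only tumours, and Mal 39.3 to 114 and 35.3 to 159. Mobp read 12.7 to 202 and 7.4 to 14.0, and Mog was dim in both groups, at most 14.5 and 6.1.

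Rictor itself was examined first. The brightest of its 5 probe sets read 68.8 in C1, 159 in C2, 190 in C4, 202 in C5 and 236 in C6 among the Rictor-null tumours, against 258 in A3, 223 in A5 and 273 in A6 among the p53-null-only tumours. The Rictor-heterozygous tumours read 261 and 277. C1 was far below all others, C6 lay inside the p53-null-only range, and the other 3 Rictor-null tumours lay below it, so the groups overlapped. The log2 difference was −0.64, with an exact two-sided permutation p of 0.125 over the 56 ways to split the 8 arrays and of 0.312 after adjustment over the 5 probe sets. The smallest p these splits can give is 0.0179. Without C1 the difference was −0.35. In C1 Rictor lay within a run of 40 neighbouring genes, Selenop to Golph3, whose median was −0.47 relative to the 10-tumour median. In C6 Rictor lay in overlapping runs, such as that of 30 genes from Rictor to Cdh6 (median −0.47). The part of these runs in the Rictor values was not tested.

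The other Rictor probe sets were dimmer. A probe set of means 12.6 ± 6.3 (SD, n = 5) in Rictor-null and 32 ± 20.3 (SD, n = 3) in p53-null-only tumours had a log2 difference of −0.96 with an exact permutation p of 0.0714. A further 2 probe sets differed by −0.32 each and the dimmest by 0.07. None of the 5 passed the test. No position of these probe sets along the transcript was used here, so they do not check which exons were deleted.

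The other mTOR complex genes gave no called difference. Across the 11 tested genes of the 12 listed (Prr5 was not tested), the median log2 difference was 0.19, against 0.06 over all genes tested, and none passed limma's test across all genes. Mapkap1, which encodes mSIN1, the mTORC2 subunit that binds RICTOR, read 432, 298, 300, 296 and 324 in C1, C2, C4, C5 and C6, against 223, 287 and 245 in A3, A5 and A6. Every Rictor-null tumour was above every p53-null-only tumour, C1 most of all, with a log2 difference of 0.38 ± 0.22 (SE) and an unadjusted limma p of 0.108. Such a lack of overlap was met in 2.16% of all genes for Rictor-null above and 1.11% for Rictor-null below. Tti1, a scaffold of the complex that folds and assembles mTOR, read 133, 117, 93.5, 104 and 95.9 in the Rictor-null tumours, against 70.7, 77.3 and 63.0 in the p53-null-only tumours, again without overlap (0.58 ± 0.24, unadjusted p 0.0310).

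Its partner Tti2 went the other way, at 46.7, 22.0, 52.2, 29.3 and 46.6 in the Rictor-null tumours, against 48.3, 114 and 138 in A3, A5 and A6 (−1.16 ± 0.38, unadjusted p 0.0112). A3 was within the Rictor-null range, so only A5 and A6 stood above it. Both unadjusted p-values became 0.981 after adjustment. The kinase gene Mtor averaged 297 ± 66.9 (SD, n = 5) in Rictor-null and 295 ± 99.5 (SD, n = 3) in p53-null-only tumours (0.04), and Mlst8, a subunit of both mTOR complexes, differed by 0.19 with a 95% interval of −0.46 to 0.84. The genes for the mTORC1 subunits Rptor and Akt1s1 differed by 0.35 and 0.42 and the mTOR inhibitor Deptor by −0.18, all with overlapping groups. Prr5l, whose product binds mTORC2, was dim, at 20.3 ± 7.6 and 13.2 ± 2.7 (0.42).

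**Figure D1:**
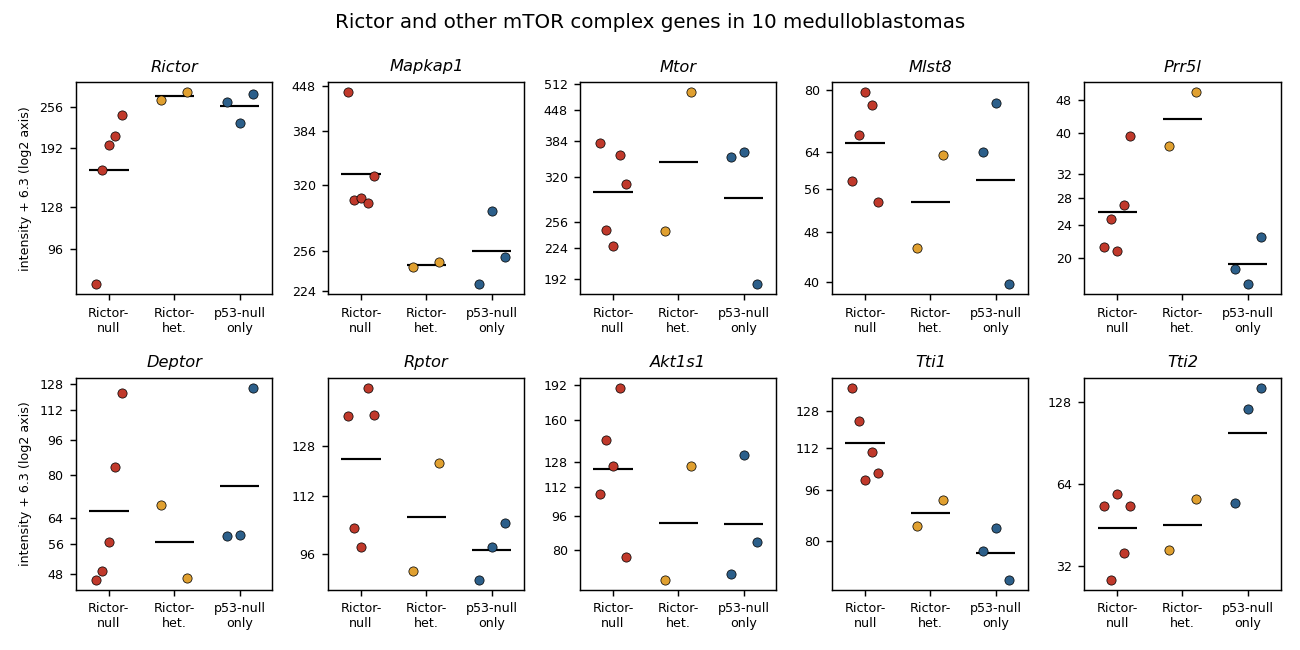
Intensity plus 6.3 (log2 axis, scaled by gene) of Rictor and 9 other mTOR complex genes in each medulloblastoma; points are arrays, in code order within a group, and bars are means on the log2 scale. Rictor was lowest in C1 at 68.8, Mapkap1 and Tti1 were higher in all 5 Rictor-null than in all 3 p53-null-only tumours, and Tti2 was lower in the Rictor-null tumours than in A5 and A6.

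Across the genome 1 gene passed the test. Of 13931 genes, limma called Tmem267 at an adjusted p under 0.05, which is 0.00718% of the genes, and 605 genes (4.34%) had an unadjusted p under 0.05. Of these, 339 (2.43% of the genes tested) were higher and 266 (1.91%) lower in Rictor-null tumours. Without overlap between the groups, 301 genes were above and 154 below. A positive log2 difference was met in 56.7% of the genes tested. The median standard error of a log2 difference was 0.32 and the median distance from a difference to the end of its 95% interval was 0.71 before any adjustment. Adjustment over all genes asks for larger differences than that. The second lowest adjusted p was 0.284.

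Tmem267, which encodes a membrane protein of unknown function, read 101 in C1, 72.6 in C2, 82.7 in C4, 99.5 in C5 and 132 in C6, against 8.2 in A3, 2.1 in A5 and 14.0 in A6. The Rictor-heterozygous tumours read 92.7 and 119. The p53-null-only tumours were thus the low ones, near the dim end of the array, and the other 7 medulloblastomas were alike. The log2 difference was 2.91 ± 0.33 (SE), with an adjusted p of 0.0234 from limma.

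The level of Tmem267 was not low in every p53-null-only tissue. The p53-null-only glioma read 109 and the p53-null-only normal brain 87.8, beside 82.7 to 172 in the 5 Rictor-null normal brains and 117 in the wild-type normal brain. The arrays whose titles carry the prefix YZ and those with YZ2 both showed the difference: within YZ, C1, C4 and C5 stood against A5 and A6 (2.94), and within YZ2, C2 and C6 stood against A3 (2.85). The call was lost with the prefix as a block, at an adjusted p of 0.0788, and in a fit of the 8 arrays without the heterozygous tumours, at 0.0672 by limma. Within a prefix there are at most 2 p53-null-only arrays, and 1 within YZ2, so a lost call there says nothing on stability. Tmem267 also lost its call without any 1 of C2, C1, C5, A3 or A5. The 15 tested genes that lie next to it on the chromosome had log2 differences of −0.46 to 0.64 with a median of 0.18, and 0 of them reached an unadjusted limma p of 0.05.

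The 9 further genes of lowest p that were higher in Rictor-null tumours did not pass the test. Since they were picked by that p, their values are a description. Ifi202b, an interferon-inducible gene of the p200 family, whose protein binds DNA in the cytosol, read 37.7, 53.7, 10.2, 62.7 and 27.7 in C1, C2, C4, C5 and C6, against 0.6, 0.3 and 0.3 in A3, A5 and A6 (2.58, adjusted p 0.284 by limma). Both heterozygous tumours were higher still, at 116 and 96.8. The p53-null-only normal brain read 0.5, beside 2.0 to 19.3 in the Rictor-null normal brains, and the wild-type normal brain was as low, at 0.8. The p53-null-only glioma read 5.8, beside 29.9 in the Rictor-null glioma and 40 to 180.5 in the heterozygous gliomas.

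Ak4, a mitochondrial adenylate kinase, read 182, 155, 90.6, 123 and 231 in the Rictor-null tumours, against 42.8, 36.8 and 42.1 in the p53-null-only tumours. All 5 lay well above all 3 (1.73, adjusted p 0.570). Of its 4 other probe sets, 1 averaged 95.6 and 25.5 and differed by 1.61, also without overlap, and the means of the other 3 were below the filter of 8.47 in both groups, too dim to show a difference. Ak4 was not low in other p53-null-only tissue, at 148 in the glioma and 117 in the normal brain. Pcdhb12, a clustered protocadherin of neuronal cell contacts, read 124, 38.9, 171, 38.7 and 150 in the Rictor-null tumours, against 15.3, 11 and 15.8 in the p53-null-only tumours, with C2 and C5 the closest to that group (2.22).

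Glt8d2, a glycosyltransferase-like gene, averaged 33.9 ± 4.1 (SD, n = 5) in Rictor-null and 12.6 ± 1.3 (SD, n = 3) in p53-null-only tumours (1.09), and a second probe set gave 0.88 without overlap, a further one being below the filter in both groups. The other 5 were dim. Spata5l1, an AAA-type ATPase gene, averaged 34.0 ± 8.5 and 7.6 ± 2.7 (1.52), and Lgals7, the galectin-7 gene, 25.3 ± 10.7 and 3.0 ± 1.8 (1.71). The nuclear receptor gene Nr5a2 averaged 12.7 ± 6.8 and 0.93 ± 0.06 (1.32), a second probe set averaged 10.5 and 6.4 (0.39, with overlap) and its other probe sets were below the filter in both groups, and the hair keratin gene Krt83 averaged 11.6 ± 3.4 and 1.6 ± 0.90 (1.17). The probe set annotated to Mir1931 averaged 31.1 ± 22.8 and 2.4 ± 1.6 (1.92). An array of this kind reads a longer transcript there, not the mature miRNA. In the p53-null-only glioma and normal brain, Spata5l1 read 2.8 and 0.4. The Rictor-null glioma read 48.6 and the Rictor-null normal brains 7.1 to 25. The Mir1931 probe set read 0.7 and 0.3, beside 21.4 and 12 to 55.9, and Lgals7 6.6 and 3.8, beside 7.8 and 8.2 to 24.9. Krt83, at 7.9 and 21.6, and Nr5a2, at 22.9 and 8.2, were there above their means in the p53-null-only medulloblastomas.

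Fgf5 headed the genes lower in Rictor-null tumours. This gene, a secreted fibroblast growth factor, read 21.8 in C1, 31.9 in C2, 18.4 in C4, 36.4 in C5 and 22.6 in C6, against 532 in A3, 198 in A5 and 151 in A6. The heterozygous tumours read 77.3 and 13.3. Every Rictor-null tumour was far below every p53-null-only tumour, with A3 the highest (−3.02 ± 0.50, adjusted p 0.284 by limma). A second probe set, below the filter in the Rictor-null group with a mean of 3.5, averaged 36.6 in the p53-null-only group (−1.72, without overlap). In the p53-null-only glioma and normal brain the gene read 13.2 and 21.7.

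Igfbpl1, a secreted relative of the insulin-like growth factor binding proteins that marks neural progenitors, averaged 275 ± 71.9 (SD, n = 5) in the Rictor-null tumours, C6 being the lowest at 200, against 1029, 1088 and 723 in the p53-null-only tumours. The gap between the highest of the first and the lowest of the second group was wide, and the heterozygous tumours, at 393 and 181, lay with the Rictor-null ones (−1.77 ± 0.30, adjusted p 0.284). A second probe set differed by −1.07 without overlap. Npas3, a transcription factor of neural development, averaged 51.6 ± 20.8 (SD, n = 5) and 154 ± 19.1 (SD, n = 3), with C2 at 88.2 the nearest of the Rictor-null tumours (−1.52), and of its other probe sets 1 gave −1.65 without overlap, 1 gave −0.63 with overlap and 1 was below the filter in both groups.

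Slc17a6, the vesicular glutamate transporter VGLUT2 of excitatory neurons, read 127, 205, 104, 162 and 222 in the Rictor-null tumours, against 514, 313 and 949 in the p53-null-only tumours. It was below in all 5 (−1.72 ± 0.37, adjusted p 0.570 by limma). Its second probe set differed by −1.33 with overlap. By contrast, the other 14 of the 15 tested mature neuron genes had positive differences, beside 56.7% of all genes. Tshz2, a zinc finger factor of developing tissue, averaged 224 ± 82.5 and 693 ± 203 (−1.64, a second probe set −0.60 with overlap), and Cebpb, a transcription factor of inflammatory and acute-phase genes, 90.8 ± 21.5 and 226 ± 69.4 (−1.24, second probe set −1.04, both without overlap). Lcn2, the iron-scavenging lipocalin-2, averaged 15.5 ± 12.3 and 141 ± 75.4 (−2.81), and Npl, an enzyme that breaks down sialic acid, 19.9 ± 11.9 and 112 ± 61.8 (−2.20).

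Mndal, a p200-family gene like Ifi202b, read 40.0, 113, 20.9, 97.0 and 10.5 in the Rictor-null tumours, against 451, 184 and 683 in the p53-null-only tumours (−3.02, adjusted p 0.570). It thus had the opposite sign to Ifi202b. Its second probe set differed by −2.81 without overlap. In the p53-null-only glioma and normal brain, Mndal read 19.9 and 12.7, at the level of the Rictor-null arrays of those tissues.

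Tmem87a, a membrane protein of the Golgi, read 53.8, 54.9, 47.7 and 58.9 in C1, C2, C4 and C5 and 217 in C6, against 507, 326 and 335 in A3, A5 and A6 (−2.31, adjusted p 0.435). C6 was the exception among the Rictor-null tumours. The normal-brain array that carries the code C6 was also the exception in its group, at 187 beside 43.6, 45.6, 66.9 and 29.2, and the p53-null-only normal brain and glioma read 233 and 571. The wild-type normal brain, at 202, was likewise high. Some Rictor-heterozygous arrays were high too: the normal brain B2 read 218, beside 44.6 to 76.9 in the others of its group. The gliomas B2 and B3 read 332 and 291, beside 103 and 96.2 in B1 and B7. The labels do not say that a shared code means a shared animal. Without C6 the log2 difference was −2.69 with an adjusted limma p of 0.0101.

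The heterozygous tumours lay nearer the Rictor-null mean, both of them, for 11 of the 20 named genes, and nearer the p53-null-only mean, both of them, for 2 (Krt83 and Pcdhb12). Among all genes tested the shares were 32.8% and 20.8%, and among the 455 genes without overlap 39.6% and 11.9%. As the Rictor-null group holds more arrays than the p53-null-only group, these shares are a description.

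**Figure D2:**
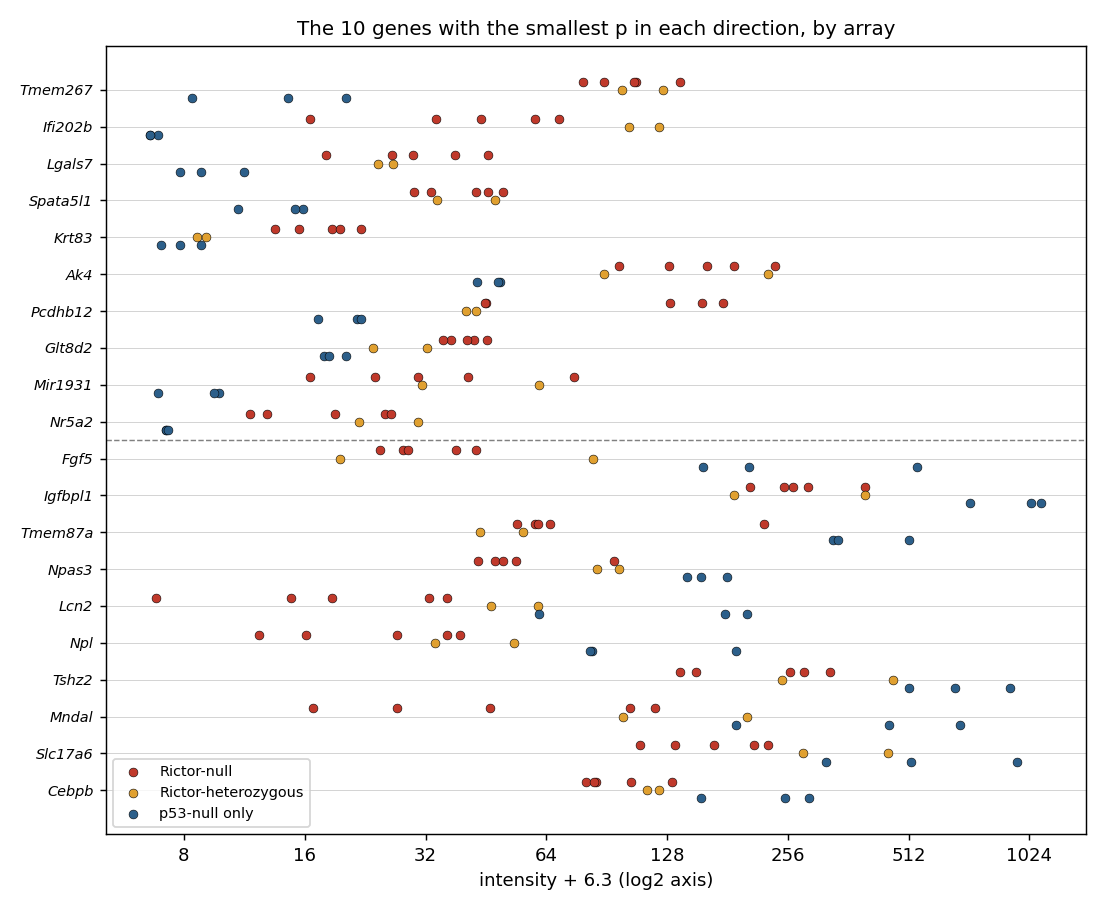
Intensity plus 6.3 (log2 axis) in each medulloblastoma of the 10 genes with the smallest p that were higher (above the dashed line) and the 10 that were lower in Rictor-null tumours; each point is 1 array. The Rictor-null and p53-null-only groups do not overlap for any of the 20, which were picked for a small p. C6 at 217 is the outlying Rictor-null point of Tmem87a.

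The kinases on which mTORC2 acts showed no called change. Of 29 genes of PI3K, AKT, SGK and protein kinase C signalling, 27 were tested, 0 passed limma's test, 0 had an unadjusted p under 0.05 and their median log2 difference was 0.03, with a sign that turned in 7 of 22 alternatives. Akt1 read 263, 348, 429, 243 and 215 in the Rictor-null tumours, against 421, 454 and 387 in the p53-null-only tumours, so that only C4 reached the p53-null-only range (−0.52 ± 0.25, unadjusted p 0.0605). Akt2 differed by 0.52 ± 0.31 in the other direction, with overlap.

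FOXO genes and targets gave mostly negative differences, none of which passed the test. Of 19 tested list members, 17 had a negative log2 difference and 2 (Sod2 and Bcl6) a positive one, beside 56.7% positive over all genes. The median was −0.41, against 0.06 over all genes, and 0 members reached an unadjusted p of 0.05 by limma. Cdkn1b, the cyclin-dependent kinase inhibitor p27, read 514, 1113, 1352, 561 and 1088 in C1, C2, C4, C5 and C6, against 1137, 1664 and 1102 in A3, A5 and A6. C1 and C5 were well below the rest and the others overlapped (−0.57 ± 0.33). The median of the list was −0.16 without A6. A6 also had the highest summed intensity of the astrocyte genes, at 18218, beside 3488 to 10778 in the other 9 tumours, and the part of these cells in the FOXO values was not tested.

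The letters TGTTTAC, the core that forkhead factors such as FOXO prefer, were looked for on both strands in the 300 bases around the start of each gene (250 before to 50 after, RefSeq, GRCm38.p6). They stood in a window of 4 of the 17 FOXO-list genes with a window, 23.5%, against 3.12% of the 11191 tested genes with one. The list was drawn up from known FOXO genes and targets, so the share is a description of the list and not of the tumours. Of the 20 named genes, 15 had a window and 0 held the letters. The GLI letters TGGGTGGTC stood in no window of the 15 hedgehog-list genes that had one and in 0.214% of tested genes. The 4 windows are printed because they hold the letters, and they belong to Bbc3 (chr7:16310011-16310310), the apoptosis gene PUMA, Bcl2l11 (chr2:128125788-128126087), the apoptosis gene BIM, Sesn1 (chr10:41810324-41810623), the stress protein sestrin 1, and Txnip (chr3:96557707-96558006), an inhibitor of thioredoxin and glucose uptake. All are on the plus strand, and capitals mark the match, which reads GTAAACA where it lies on the minus strand. A match is not shown to be a bound site.
Bbc3: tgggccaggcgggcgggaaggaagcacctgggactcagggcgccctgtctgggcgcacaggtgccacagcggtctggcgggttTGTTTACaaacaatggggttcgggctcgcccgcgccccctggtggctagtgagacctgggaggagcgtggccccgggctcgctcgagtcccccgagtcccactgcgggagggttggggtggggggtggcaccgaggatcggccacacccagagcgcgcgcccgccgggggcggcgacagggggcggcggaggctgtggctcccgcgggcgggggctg
Bcl2l11: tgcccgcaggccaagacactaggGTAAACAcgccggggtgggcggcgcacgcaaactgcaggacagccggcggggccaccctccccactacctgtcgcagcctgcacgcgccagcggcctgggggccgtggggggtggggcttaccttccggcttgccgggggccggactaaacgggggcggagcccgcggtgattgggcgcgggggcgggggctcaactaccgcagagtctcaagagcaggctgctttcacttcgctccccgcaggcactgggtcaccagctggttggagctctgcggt
Sesn1: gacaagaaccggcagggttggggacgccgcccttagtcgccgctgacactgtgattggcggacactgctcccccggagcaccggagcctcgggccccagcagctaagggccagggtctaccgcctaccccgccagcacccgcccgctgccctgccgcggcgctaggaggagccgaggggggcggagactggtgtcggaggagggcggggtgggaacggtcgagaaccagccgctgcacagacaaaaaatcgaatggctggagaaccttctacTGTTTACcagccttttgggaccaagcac
Txnip: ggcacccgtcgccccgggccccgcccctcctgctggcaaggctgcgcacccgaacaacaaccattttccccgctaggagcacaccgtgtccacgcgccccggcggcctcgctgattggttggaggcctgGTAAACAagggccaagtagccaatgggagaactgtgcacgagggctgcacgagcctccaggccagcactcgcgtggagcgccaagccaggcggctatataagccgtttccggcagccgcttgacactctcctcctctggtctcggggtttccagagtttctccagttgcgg

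The 4 genes had negative log2 differences, none with an unadjusted p under 0.05. Txnip read 178, 574, 1028, 562 and 428 in the Rictor-null tumours, against 746, 387 and 3640 in A3, A5 and A6, and A6 alone stood above the rest (−1.08 ± 0.70). Bcl2l11 read 198, 332, 115, 213 and 201, against 233, 198 and 630, again with only A6 apart (−0.60 ± 0.40). Sesn1 read 469, 604, 508, 311 and 648, against 770, 443 and 1078 (−0.53 ± 0.34). Bbc3 was dim, at 33.1 ± 9.3 (SD, n = 5) in Rictor-null and 48.9 ± 18.5 (SD, n = 3) in p53-null-only tumours (−0.46 ± 0.31). In each of the 4, A6 was the highest of the 10 medulloblastomas.

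Hedgehog genes gave no called difference and spread widely within each genotype. Of 21 tested genes, 0 were called, 1 (Ccnd1) had an unadjusted p under 0.05 and the median log2 difference was 0.15, with a sign that turned in 2 of 22 alternatives. Ptch1, the hedgehog receptor and a target of the GLI factors, read 1347 in C1, 372 in C2, 1771 in C4, 42.3 in C5 and 1131 in C6, against 34.2 in A3, 1942 in A5 and 625 in A6. C5 and A3 were thus near 40 in either group while the other 8 medulloblastomas lay between 372 and 1942 (0.58 ± 1.28). Gli1, a target that reports hedgehog activity, was among the highest in those tumours, at 321 in C5 and 270 in A3. It read 95.4, 278 and 148 in C1, C2 and C4 and 23.4 in C6, against 271 and 114 in A5 and A6 (−0.64 ± 0.67).

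Gli2, the main activating GLI factor, read 422, 807, 1290, 739 and 538 in the Rictor-null tumours, against 483, 635 and 491 in the p53-null-only tumours (0.40 ± 0.37). Mycn, a hedgehog target that drives precursor division, averaged 2320 ± 1147 (SD, n = 5) and 2206 ± 854 (SD, n = 3), with a 95% interval of its log2 difference of −0.83 to 0.86. Ccnd1, the cyclin D1 gene, read 997, 2152, 2466, 2139 and 3961 in C1, C2, C4, C5 and C6, against 1353, 1468 and 532 in A3, A5 and A6. C1 fell within the p53-null-only range and the other 4 above it (1.07 ± 0.42, unadjusted p 0.0267, adjusted 0.981 by limma). Ccnd2, the cyclin of granule neuron precursors, was low in 1 tumour of each group, at 645 in C6 and 425 in A3, and between 1514 and 4304 in the other 6 (0.27 ± 0.75).

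Granule lineage genes had a median log2 difference of 0.04 over 18 tested members, with 0 called and 0 at an unadjusted p under 0.05. Atoh1, the factor that keeps granule neuron precursors undifferentiated, read 1111, 1335, 717 and 1112 in C1, C2, C4 and C5 but 37.5 in C6, against 1269, 1501 and 493 in A3, A5 and A6 (−0.83 ± 0.95). Genes of mature granule and Purkinje cells had a median of 1.14 over 12 members, with 0 called. Gabra6, a GABA receptor subunit of mature granule neurons, read 1324 in C6 and 10.5 to 187 in the other 4 Rictor-null tumours, against 8.1, 29.8 and 30.3 in the p53-null-only tumours, and 1638 in the heterozygous tumour B6. Without C6 the median of the list was 0.49. The mature neuron list behaved alike, with a median of 1.01 and of 0.54 without C6; Syt1, a synaptic vesicle protein, read 1423 in C6 and 935 in C1, against 94.1 to 122 in the p53-null-only tumours.

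**Figure D3:**
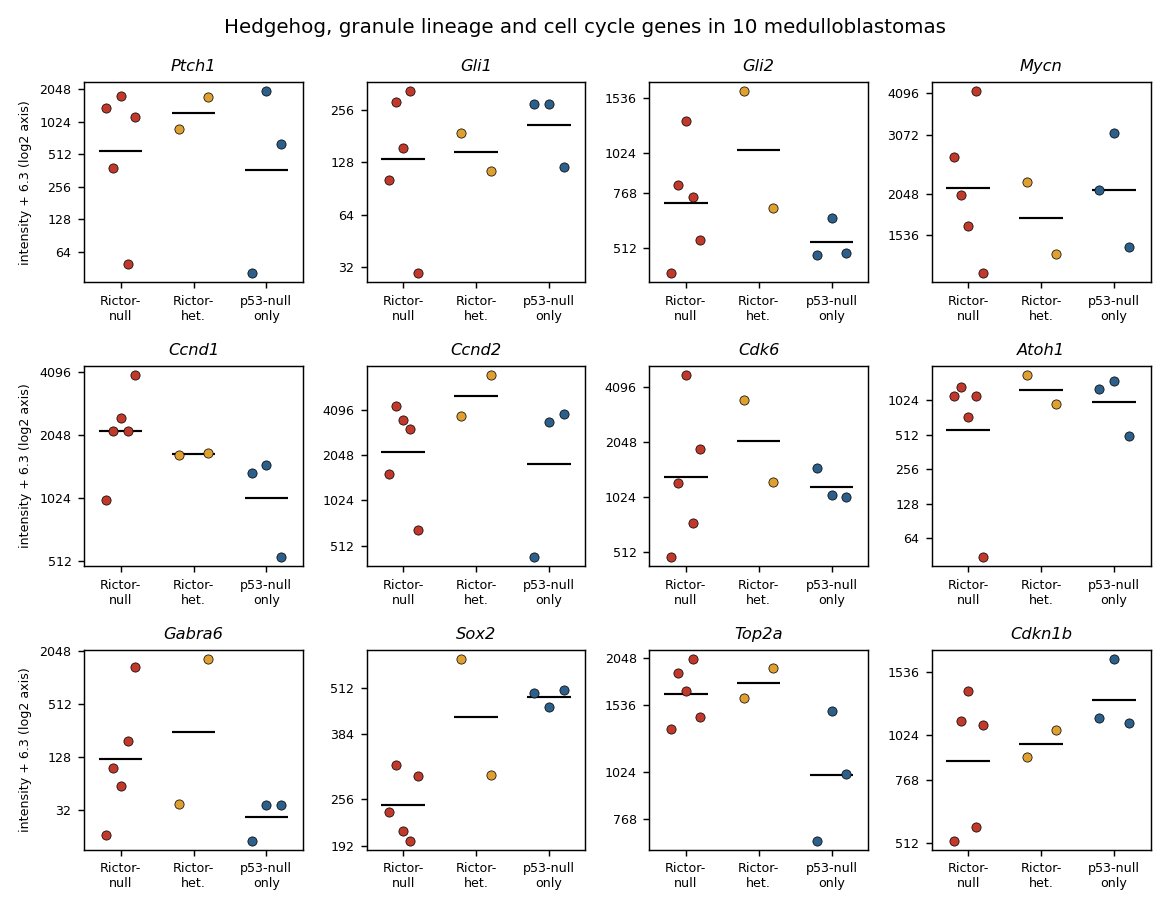
Intensity plus 6.3 (log2 axis, scaled by gene) of 12 hedgehog, granule lineage and cell cycle genes in each medulloblastoma; points are arrays, in code order within a group, and bars are means on the log2 scale. Ptch1 was near 40 in 1 Rictor-null and 1 p53-null-only tumour, C6 had the lowest Atoh1 at 37.5, and Sox2 was lower in all 5 Rictor-null than in all 3 p53-null-only tumours.

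Cell cycle genes had positive log2 differences in all 28 tested members, beside 56.7% of all genes. Their median was 0.35, against 0.06 over all genes, yet 0 were called and 1 (Top2a) had an unadjusted limma p under 0.05. Top2a, the DNA topoisomerase of dividing cells, read 1326, 1862, 1668, 2031 and 1423 in the Rictor-null tumours, against 665, 1478 and 1006 in the p53-null-only tumours (0.72 ± 0.26, unadjusted p 0.0181). A5 was inside the Rictor-null range. E2f1, a driver of entry into DNA synthesis, read 141, 112, 190, 123 and 123, against 111, 84.4 and 94.7, without overlap (0.47 ± 0.25). A3 had the lowest summed intensity of the list, at 10748, against 15341 to 23266 in the Rictor-null tumours and 24898 and 14024 in A5 and A6. Without A3 the median of the list was 0.05, and without A5 it was 0.60. Mki67, the proliferation antigen Ki-67, read 786, 1810, 1448, 2007 and 684 in the Rictor-null tumours, against 479, 1628 and 1024 in A3, A5 and A6 (0.41), with overlap.

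Of the G1 regulators, 19 genes in all, Ccnd1 had an unadjusted p under 0.05 and the median was 0.01. Cdk6, the kinase partner of the D cyclins, read 473, 1211, 4715, 730 and 1869 in C1, C2, C4, C5 and C6, against 1460, 1037 and 1015 in A3, A5 and A6. C4 was the highest of the 10 tumours and C1 the lowest (0.17 ± 0.62). Of 16 tested p53 targets, Trp53inp1 was lower at an unadjusted p of 0.0396 (−0.65 ± 0.28) and the median was −0.18, both groups lacking p53. Over 13 tested BCL2 family genes the median was −0.20 with 0 at an unadjusted p under 0.05.

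Neural stem cell genes gave no called difference. Of 13 tested genes, 10 had a negative difference, 4 (Sox2, Sox9, Fabp7 and Id1) had an unadjusted p under 0.05 with lower values in Rictor-null tumours, beside 1.91% of all genes, and 0 were called. The median log2 difference was −0.76, against 0.06 over all genes, of which 56.7% had a positive difference. Sox2, a pluripotency and stem cell factor that marks slow-cycling cells of hedgehog medulloblastoma, read 231, 310, 204, 192 and 289 in the Rictor-null tumours, against 489, 447 and 497 in the p53-null-only tumours. The heterozygous tumours were split, at 605 and 291. Every Rictor-null tumour was below every p53-null-only tumour (−0.97 ± 0.27, unadjusted p 0.00414, adjusted 0.981 by limma).

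Sox9, a factor of glial and stem cell fate, read 177, 214, 261, 222 and 162, against 313, 387 and 440, also without overlap (−0.86 ± 0.36). Fabp7, a fatty acid binding protein of radial glia, averaged 1316 ± 489 (SD, n = 5) and 2595 ± 782 (SD, n = 3), with A5 at 1694 inside the Rictor-null range (−1.02 ± 0.34). Id1, an inhibitor of neural differentiation factors, averaged 115 ± 37.0 and 221 ± 57.2 (−0.93 ± 0.32). Nes and Vim, intermediate filaments of progenitors, differed by −0.11 and −0.09. These genes are shared with glia, and the astrocyte list had a median of −0.37 over 14 members, 0 of them at an unadjusted p under 0.05. In bulk samples, fewer cells of a type and less RNA per cell cannot be told apart. The stem cell median was −0.42 without C2, −0.49 without A6 and −0.27 within the YZ arrays.

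Markers of other cell types gave no called difference. Of 15 tested microglia and macrophage genes, Cd14, a receptor for bacterial lipid, averaged 18.1 ± 3.9 and 68.4 ± 57.8 (−1.35), and Mrc1, the mannose receptor of perivascular macrophages, 14.0 ± 3.9 and 32.8 ± 19.7 (−0.86), both without overlap and at an unadjusted p under 0.05. The median of the list was −0.31, and the defining markers Aif1 and Cx3cr1 overlapped between groups. In the vessel wall lists, Kcnj8 and Rgs5, both of pericytes, were lower without overlap (−1.01 and −0.97), the endothelial tight junction gene Cldn5 was lower with overlap (−0.88), and the angiopoietin receptor Tek was above without overlap (1.18), C4 standing out at 266. The choroid plexus carrier Ttr read at most 106 in the Rictor-null tumours, against 5340 in A5 and at most 37.7 in the other p53-null-only tumours, and 8734 in B4. List medians were −0.45 for endothelial, −0.20 for mesenchymal and mural, −1.11 for choroid plexus, 0.49 for oligodendrocyte and −0.52 for oligodendrocyte precursor genes. Of the lymphocyte and red cell genes 2 and 1 were tested, with medians of 0.61 and −0.16, and of the sex-linked genes 2, with a median of 0.24.

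Among signalling and metabolic lists, Ier2 and Fos, genes switched on within minutes of a stimulus, had an unadjusted p under 0.05. Ier2 read 267, 241, 50.8, 230 and 104, against 622, 321 and 648, without overlap (−1.69 ± 0.50), and Fos averaged 97.0 ± 49.4 and 342 ± 313, with A6 at 690 (−1.41 ± 0.56). The median of the 12 immediate early genes was −0.39, and −0.01 without A6. Of 14 tested receptor tyrosine kinases, Ntrk3, the neurotrophin-3 receptor that granule neurons carry, read 134, 78.4, 61.6, 258 and 82.5, against 182, 449 and 430, with only C5 reaching the p53-null-only range (−1.56 ± 0.45), and Fgfr1, a receptor for fibroblast growth factors, averaged 101 ± 29.0 and 167 ± 41.2 (−0.70). The median of that list was −0.14, and that of 9 genes that mark WNT and other medulloblastoma types −0.07.

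In glycolysis, Pgk1 was above without overlap (0.49) and the glucose transporter Slc2a1 below without overlap (−0.65), with 0 called of 17 and a median of 0.20. Slc2a1 read 484 in A3 and 495 in A5, not far above the Rictor-null tumours (374 to 442), and 1174 in A6. The sterol and fatty acid list had a median of 0.23 over 20 genes, with 0 at an unadjusted p under 0.05, and the interferon list a median of 0.13 over 10. None of the members of the 28 lists passed limma's adjusted test.

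**Figure D4:**
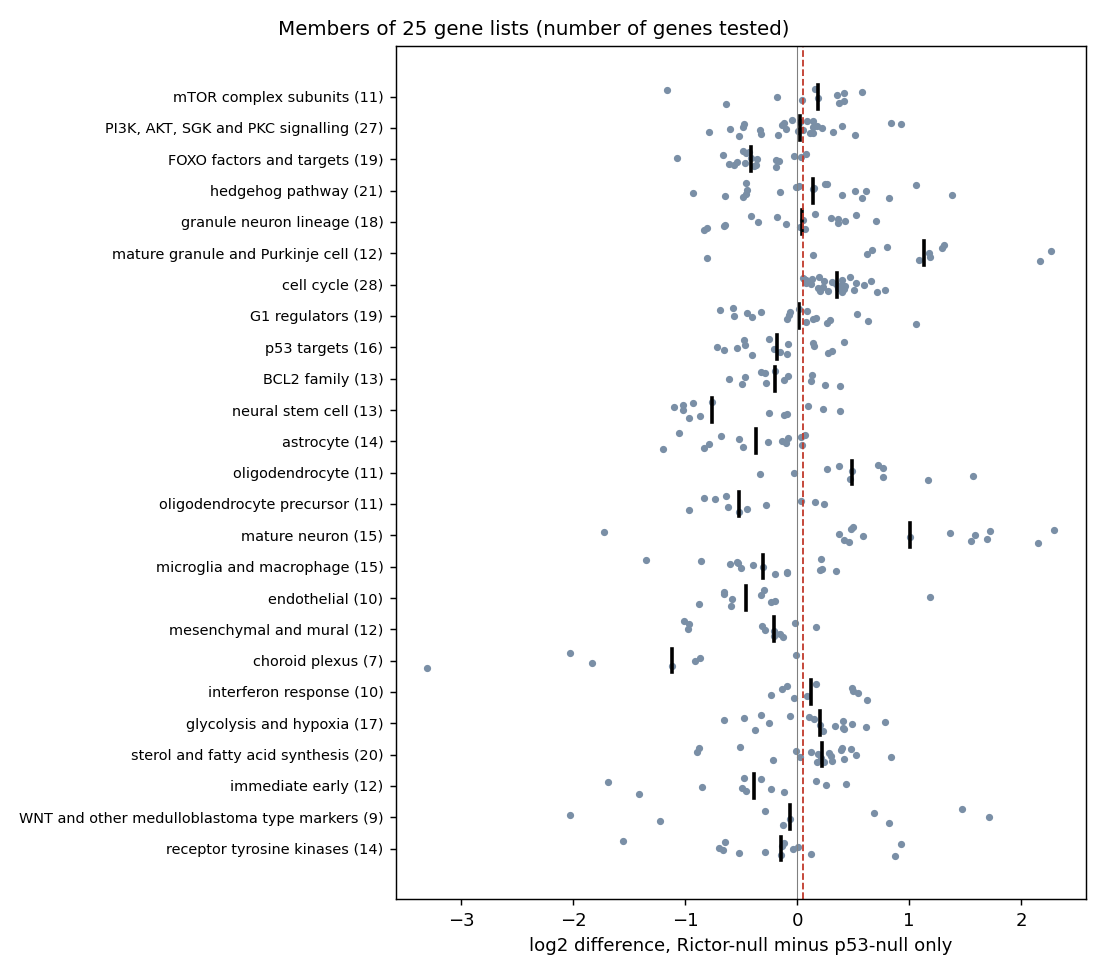
Log2 difference (Rictor-null minus p53-null only) of each tested member of 25 gene lists; each point is a gene, each black bar the median of its list, the dashed line the median of all genes (0.06) and the thin line 0. The cell cycle genes all lie above 0 with a median of 0.35, and the stem cell list has a median of −0.76.

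The genes beside Rictor on its chromosome were also read. Of the 20 nearest tested genes, 10 on each side, 3 were lower at an unadjusted p under 0.05 and 0 higher, beside 1.91% and 2.43% of all genes, with a median of −0.15, against 0.06 over all genes. The next tested gene on 1 side, Osmr, the oncostatin M receptor, read 33.6, 29.0, 49.9, 61.1 and 40.6 in the Rictor-null tumours, against 131, 56.9 and 155 in the p53-null-only tumours (−1.23 ± 0.36, unadjusted p 0.00514). C5 just exceeded A5, and the other 4 Rictor-null tumours were below all 3. Dab2, an endocytic adaptor on the other side, averaged 38.4 ± 12.3 and 83.8 ± 28.3, with overlap (unadjusted p 0.00933). Nipbl, the cohesin loader, averaged 203 ± 68.7 and 384 ± 142 without overlap (−0.92 ± 0.35). None passed after adjustment.

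Single tumours also held long runs of neighbouring genes that stood off together from the median of the 10 tumours. Runs were taken where the median over 25 neighbouring genes passed 0.5 log2 units either way, of which C1, C2, C4, C5 and C6 held 21, 24, 9, 10 and 33, and A3, A5 and A6 held 18, 10 and 16. At that limit the groups overlapped. Neighbouring runs can share genes, so a stretch can be counted more than once and the counts are not numbers of separate stretches. Runs with a peak beyond 1, a limit set after the values were seen, are described further. There were 7 in the Rictor-null tumours (3 in C6, 2 in C2, 1 in C1, 1 in C4 and 0 in C5), 3 in the heterozygous tumours and 0 in the 3 p53-null-only tumours, where the peaks reached 0.77 at most. In C4 the 41 genes from Cdk6 to Phtf2 had a median of 1.61 above the 10-tumour median, Cdk6 itself 1.97. In C6 the 79 genes from Ptpre to Th had a median of 1.21 and the adjoining run from Th to Mrgprf, which holds Ccnd1, of 1.18.

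The stretch from Cdk6 to Dmtf1 was high in 3 of the 10 tumours, with medians of 1.86 in C4, 0.91 in C6 and 0.82 in the heterozygous tumour B4, and between −0.36 and 0.00 in the other 7. In C1 a run of 47 genes held Myc, itself 0.59 above the 10-tumour median, less than in B4 (0.91) and A5 (0.88). In B4 a run of 40 genes held Gli2, which was highest there at 1600. A gene in a raised run need not be high itself. In C2 a raised run of 46 genes held Ptch1, which was at −1.39. The high Ccnd1 of C6 and the high Cdk6 of C4 thus each lay in such a run, and the low values of Ptch1 in C5 and A3 did not. DNA was not measured on these arrays.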

How the data were processed

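RNA of 28 mouse tissue samples was measured on Affymetrix Mouse 430 2.0 arrays, of which 8 medulloblastomas were compared here and 2 heterozygous ones were fitted beside them. The deposited values are linear intensity, 1 per probe set and array, made with MAS5 and GCOS per the submitters' processing notes (versions not given in the sources used here); the mean after trimming 2% at each end was 100 on each medulloblastoma array. No detection calls were used, and precision is limited by how many arrays there are.

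Groups came from the labelled tissue and genotype. Of 45101 probe sets, 64 controls were left out, 34945 had 1 gene symbol in the platform annotation, 932 several and 9160 none. Each gene was read from its probe set with the highest mean over all arrays, without asking whether its other probe sets differed, and 13931 genes above the 30th percentile (3.88 on the log2 scale) were tested. Values were log2 of the intensity plus 6.3, which understates differences of dim genes. limma 3.58.1 (R 4.3.3, lmFit and eBayes with trend) was fitted to the 10 medulloblastomas in 3 genotype groups, and p-values were adjusted by Benjamini-Hochberg over all genes. Rictor had an exact two-sided permutation test. Each log2 difference is Rictor-null minus p53-null only, and ± after it is the SE. The script was tested on simulated data.

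Named genes were called genes, filled up to 10 in each direction by the smallest p (clone and predicted names skipped), up to 3 members of each list by p, and Rictor, the mTOR complex genes, Ptch1, Gli1, Gli2, Mycn, Ccnd1, Ccnd2, Atoh1, Mki67 and Gabra6. Other genes named were chosen after their values were seen. The members and the 28 lists were chosen with earlier results of these data known. Gene order and promoter windows came from RefSeq GRCm38.p6; no array coordinates are given. Python 3.11.15, pandas 2.3.3, numpy 2.4.6 and matplotlib 3.10.9 were used. Alternatives covered pseudocount, filter, probe set, normalization, fit, title prefix and left-out arrays.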

Additional observations from a re-analysis of the deposited data

Results flagged for a closer look

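In the Rictor-null group of 5, a single tumour lay far from the other 4 for 6 of 39 genes examined by Dixon's test. By chance the test picks about 1 in 20 groups of normally distributed values. The sex-linked genes, high or near 0 by tumour, are not of that kind, so 6 of 39 is a description. C6 lay far from the others for 4 genes. Tmem87a read 216.9 there, beside 47.7 to 58.9, and Atoh1 37.5, beside 717.4 to 1334.5. Of the sex-linked genes, Xist read 21.2, beside 3411 to 6171.4, and Eif2s3y 390.6, beside 0.2 to 3.2. Npas3 was high in C2, at 88.2 beside 37.0 to 47.6. Mapkap1 was high in C1, at 432.2 beside 295.6 to 323.8, the tumour with the lowest Rictor. No further test was made of these values.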

How the results depend on the processing

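The count of called genes, 1 with the settings reported, was 2 with a pseudocount of 1, 0 with a pseudocount of 32, 0 with the 8 compared arrays alone, 0 with the title prefix as a block, 0 within either prefix and 3 with every probe set tested. Leaving out 1 array at a time gave 0 to 3 genes: 0 without C2, C1, C5, A3 or A5, 3 without C6 (Tmem267, Tmem87a and Car3) and 3 without C4 (Tmem267, Ifi202b and Cldn34c1). With C6 left out together with B6 (both rich in mature granule cell transcripts) or with A6 (both with Y-linked transcripts), alternatives chosen after seeing the data, 2 were called. Other filters, quantile normalization and a fit without the trend gave 1. The cause of these shifts was not tested, and some of the fits hold fewer arrays. Tmem267 kept its direction in all 22 alternatives, from 1.68 to 3.68, and was called in 11 of them; the fits within a prefix hold 1 or 2 p53-null-only arrays, so their lost call says nothing on stability. The Rictor difference ran from −0.80 to −0.35, from −0.77 to −0.35 with 1 array left out, and none of its 16 alternatives passed. For the named genes, 416 of 432 alternatives gave the same call, 5 gained and 11 lost one, and none changed sign; of 614 list medians, 27 moved by more than the spread between arrays. No paired analysis was possible because the groups share no animal, litter or replicate label.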
